A study of Mus musculus with 2 samples.

Results

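The 10 genes described here are recurrently mutated in human myeloid neoplasms and were followed through mouse bone marrow. They are Sf3b1, Srsf2, U2af1, Dnmt3a, Tet2, Asxl1, Ezh2, Stag2, Runx1 and Npm1. They were picked by symbol from knowledge of these diseases and not by a rule on their values. Earlier results of these data were known when they were chosen. All 10 were found among the 32285 genes of the count matrices. The marrow came from a study of DDX41, an RNA and DNA helicase whose germline variants predispose to the same diseases. Flushed femoral marrow of 1 control mouse and 1 mutant mouse, both 2 months old, was profiled by droplet single-cell RNA sequencing of transcript 3′ ends. The control, labelled WT, was a Ddx41fl/fl littermate without Cre and with intact cGas, the gene of a sensor of cytosolic DNA. The mutant, labelled DKO, was VavCre:Ddx41fl/fl cGas-/-. VavCre acts in hematopoietic cells, and also in endothelial cells and oocytes, whereas cGas was lost in every cell, so the contribution of either gene, or of Cre itself, cannot be told apart here.

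The 10 genes act at different steps of gene control. SF3B1 and U2AF1 recognise the branch point and the 3′ splice site of introns, and SRSF2 binds exonic enhancers that favour splicing. DNMT3A methylates cytosines and TET2 oxidises the methyl mark. EZH2 is the catalytic subunit of the Polycomb complex PRC2, which methylates a histone lysine to silence genes, ASXL1 is a cofactor of the BAP1 histone deubiquitinase, and STAG2 is a subunit of the cohesin ring that folds chromosomes. RUNX1 is a transcription factor of blood stem cells, platelets and lymphocytes, and NPM1 is an abundant nucleolar chaperone of ribosome assembly.

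After filtering, the WT library held 18721 cells with a median of 4879 unique molecular identifiers (UMIs, 1 per captured transcript) and the DKO library held 13729 cells with a median of 6904. Hemoglobin transcripts took 28.4% and 36.3% of the UMIs. Cells were clustered and 13 classes were named from marker genes, from 5364 WT and 4290 DKO late erythroid-like cells down to 64 and 54 plasma cell-like cells. Of 30 clusters, 3 stayed unnamed and are given by number. The basophil or mast-like class was led by Prss34 and Mcpt8, but Angpt1 and Meis1 were also among its leading genes. At a finer clustering that class held 131 WT and 68 DKO cells. An unnamed cluster led by Angpt1, Meis1 and Mecom then held 276 and 106 cells. At a coarser clustering Prss34 and Mcpt8 were leading genes of a cKit+ progenitor-like cluster. The class named here may thus hold progenitors as well. Between the libraries 75 cell barcodes were shared, and leaving those cells out moved no value beyond its interval. Ddx41 was at 20.3 CPM (the gene's UMIs per 1000000 UMIs) in WT and 8.0 CPM in DKO over all cells, and Cgas at 13.6 and 7.25 CPM. Within monocyte-like cells Cgas was at 33.3 CPM in WT and 28.4 CPM in DKO and within basophil or mast-like cells at 32.3 and 26.2 CPM, with intervals of the ratio that included 0. The DKO library thus kept Cgas 3′ counts, and the sources used here do not give the deleted parts of either gene, so these counts do not check the cGas genotype and check that of Ddx41 only in part. With 1 mouse per genotype there was no replicate and no test between genotypes. A difference between the libraries is a difference between 2 mice, and the 95% Poisson or binomial intervals cover counting error only.

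The promoters of the members were read for 2 sequence features because the study concerned G-quadruplexes, 4-stranded folds of G-rich DNA, and because several members differed between dividing and resting cells. RefSeq promoters (300 bases, 250 before and 50 after the start, build GRCm38.p6) were held for 8 of the 10 genes. A G-run motif, 4 runs of at least 3 G separated by 1 to 7 bases on either strand, lay in at least 1 promoter of 3 members, Runx1, Dnmt3a and Sf3b1, and in 18.6% of 32851 promoters. The E2F-type words TTTCCCGC and TTTGGCGC, on either strand, lay in those of Ezh2 and U2af1, and in 1.56% of all promoters; the words do not overlap each other. Runx1 has a distal and a proximal promoter, and only the proximal one, the first shown, held the G-run motif. Members were counted by gene, and Dnmt3a, Runx1 and U2af1 had several promoters, whereas the shares of all promoters were counted by promoter. G and C made up 45% to 82.3% of the member promoters, beside a median of 52.7% over all promoters. The member counts and the shares therefore do not compare directly. Sequences are shown for Runx1, which differed most often between the libraries, with the G-run motif in capitals, and for Ezh2 and U2af1 with the E2F-type word in capitals. All are on the minus strand, 5′ to 3′.
Runx1, chr16:92697280-92697579: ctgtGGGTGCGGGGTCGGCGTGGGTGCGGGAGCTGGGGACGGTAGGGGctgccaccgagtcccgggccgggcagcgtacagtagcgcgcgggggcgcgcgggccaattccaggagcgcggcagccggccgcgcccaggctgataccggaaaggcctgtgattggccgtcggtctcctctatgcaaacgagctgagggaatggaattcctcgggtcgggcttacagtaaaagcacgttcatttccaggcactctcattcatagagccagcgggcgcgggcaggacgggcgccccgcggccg
Runx1, chr16:92826025-92826324: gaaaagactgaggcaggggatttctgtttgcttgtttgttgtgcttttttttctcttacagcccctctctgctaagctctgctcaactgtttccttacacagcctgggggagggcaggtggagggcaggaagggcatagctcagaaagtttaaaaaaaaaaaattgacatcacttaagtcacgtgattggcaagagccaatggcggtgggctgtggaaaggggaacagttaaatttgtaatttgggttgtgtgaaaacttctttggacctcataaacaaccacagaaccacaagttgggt
Ezh2, chr6:47594981-47595280: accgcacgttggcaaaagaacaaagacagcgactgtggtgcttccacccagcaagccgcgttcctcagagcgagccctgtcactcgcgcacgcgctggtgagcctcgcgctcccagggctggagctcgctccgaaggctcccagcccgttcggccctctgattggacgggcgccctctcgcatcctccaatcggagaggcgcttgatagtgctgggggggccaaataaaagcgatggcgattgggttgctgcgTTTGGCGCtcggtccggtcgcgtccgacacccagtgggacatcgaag
U2af1, chr17:31658705-31659004: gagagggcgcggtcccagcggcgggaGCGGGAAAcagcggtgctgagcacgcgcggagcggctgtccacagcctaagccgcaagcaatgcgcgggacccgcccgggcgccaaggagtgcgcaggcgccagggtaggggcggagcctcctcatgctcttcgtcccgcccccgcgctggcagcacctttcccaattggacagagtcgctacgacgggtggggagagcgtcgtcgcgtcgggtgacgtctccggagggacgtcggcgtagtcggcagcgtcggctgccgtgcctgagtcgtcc
A match in these windows describes letters and not a bound or folded site.

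Among the splicing genes, Sf3b1 had the flattest profile over the classes. Its level was highest in B cell-like cells, at 323 CPM in WT and 346 CPM in DKO, and lowest in late erythroid-like cells at 20.5 and 14.9 CPM. The highest class exceeded the median class by 1.41-fold in WT and 1.46-fold in DKO. Srsf2 was highest in cKit+ progenitor-like cells, with 368 CPM in WT and 315 CPM in DKO, followed by early erythroid-like cells (313 and 293 CPM) and basophil or mast-like cells (310.2 and 282 CPM), which were not told apart from each other. When hemoglobin UMIs were left out of the totals, early erythroid-like cells came first for Srsf2. U2af1 was also highest in cKit+ progenitor-like cells, at 362 CPM in WT and 245 CPM in DKO, with basophil or mast-like cells next at 236 and 184 CPM. All 3 splicing genes were lowest in late erythroid-like cells per total UMIs, most of which were hemoglobin there. With hemoglobin UMIs left out this stayed so for U2af1, at 33.2 CPM in WT and 15.1 CPM in DKO, whereas plasma cell-like cells were lowest for Sf3b1 (124 and 86.9 CPM) and Srsf2 (74.8 and 48.0 CPM).

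The DNA methylation enzymes peaked in different classes. Dnmt3a reached 267 CPM in WT and 304 CPM in DKO megakaryocyte-like cells, 9.92-fold and 6.34-fold above the median class. The next class was basophil or mast-like in WT at 73.5 CPM and dendritic-like in DKO at 108 CPM, and the intervals were clear of the megakaryocyte-like level in both libraries. Unnamed cluster 12, led by Mertk, Cd209a and MHC class II genes, had Dnmt3a at 133 CPM in WT and 157 CPM in DKO. Dnmt3a stayed at or under 4.72 CPM in both erythroid-like classes. Tet2 was highest in monocyte-like cells, at 92.5 CPM in WT and 117 CPM in DKO, which the intervals did not separate from dendritic-like cells at 81.4 and 105 CPM. In late erythroid-like cells Tet2 was at 1.04 and 0.342 CPM, and free RNA, released by other cells into the suspension, could account for up to 99.8% of those WT UMIs. Unnamed cluster 5, led by Il1b and Csf3r, had Tet2 at 128 CPM in WT and 125 CPM in DKO, above the monocyte-like level. Cluster 12 had it at 111 and 107 CPM. Among the named classes the methyltransferase was thus highest in megakaryocyte-like cells and the oxidase in monocyte-like and dendritic-like cells.

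The chromatin and cohesin genes were highest in B cell-like, erythroid-like and neutrophil-like classes. Ezh2 was highest in B cell-like cells (333 CPM in WT, 414 CPM in DKO) and next in early erythroid-like cells (290.3 and 345 CPM), an order that turned around when hemoglobin UMIs were left out. Asxl1 was at 124 CPM in both WT basophil or mast-like and WT neutrophil-like cells, and at 203 CPM in DKO neutrophil-like cells, its highest class there. Stag2 was highest in WT B cell-like cells at 179 CPM and in DKO neutrophil-like cells at 250.2 CPM, but the intervals of these classes overlapped in both libraries. With hemoglobin UMIs left out, early erythroid-like cells came first in WT, at 212 CPM against 192 CPM in B cell-like cells. By class the PRC2 gene was thus high where early lymphoid and erythroid cells were. Asxl1 and Stag2 were high in neutrophil-like cells as well. By cluster all 3 genes were highest in early erythroid-like cluster 14 (134 WT and 155 DKO cells). Ezh2 was at 1192 CPM in WT and 1340 CPM in DKO there, Asxl1 at 323 and 324 CPM and Stag2 at 501 and 457 CPM.

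The class with the most Runx1 was basophil or mast-like, at 1099.7 CPM for WT and 1489.8 CPM for DKO. As given above, that class may also hold progenitors. Stromal-like cells followed with 571 and 1051 CPM. Its gene lies at chr16:92601466-92826149 on the minus strand. The stromal-like class joins a cluster led by Csmd1, Ptprd and Cxcl12 and one led by Mgp and Spp1 with 67.4% hemoglobin UMIs, and Runx1 lay in the former at 1109 CPM in WT and 1436 CPM in DKO. Free RNA could make up as much as 35.05% of the UMIs of the WT stromal-like class, and up to 15.7% of its Runx1 UMIs. Npm1 was highest in cKit+ progenitor-like cells at 1988 CPM in WT and 1631 CPM in DKO, and second in basophil or mast-like cells at 1594 and 1551 CPM. It was at 20.6 and 7.35 CPM in late erythroid-like cells. With hemoglobin UMIs left out, that class was at 140.1 CPM in WT, above neutrophil-like cells at 89.1 CPM, and at 61.8 CPM in DKO, the lowest class there.

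**Figure D1:**
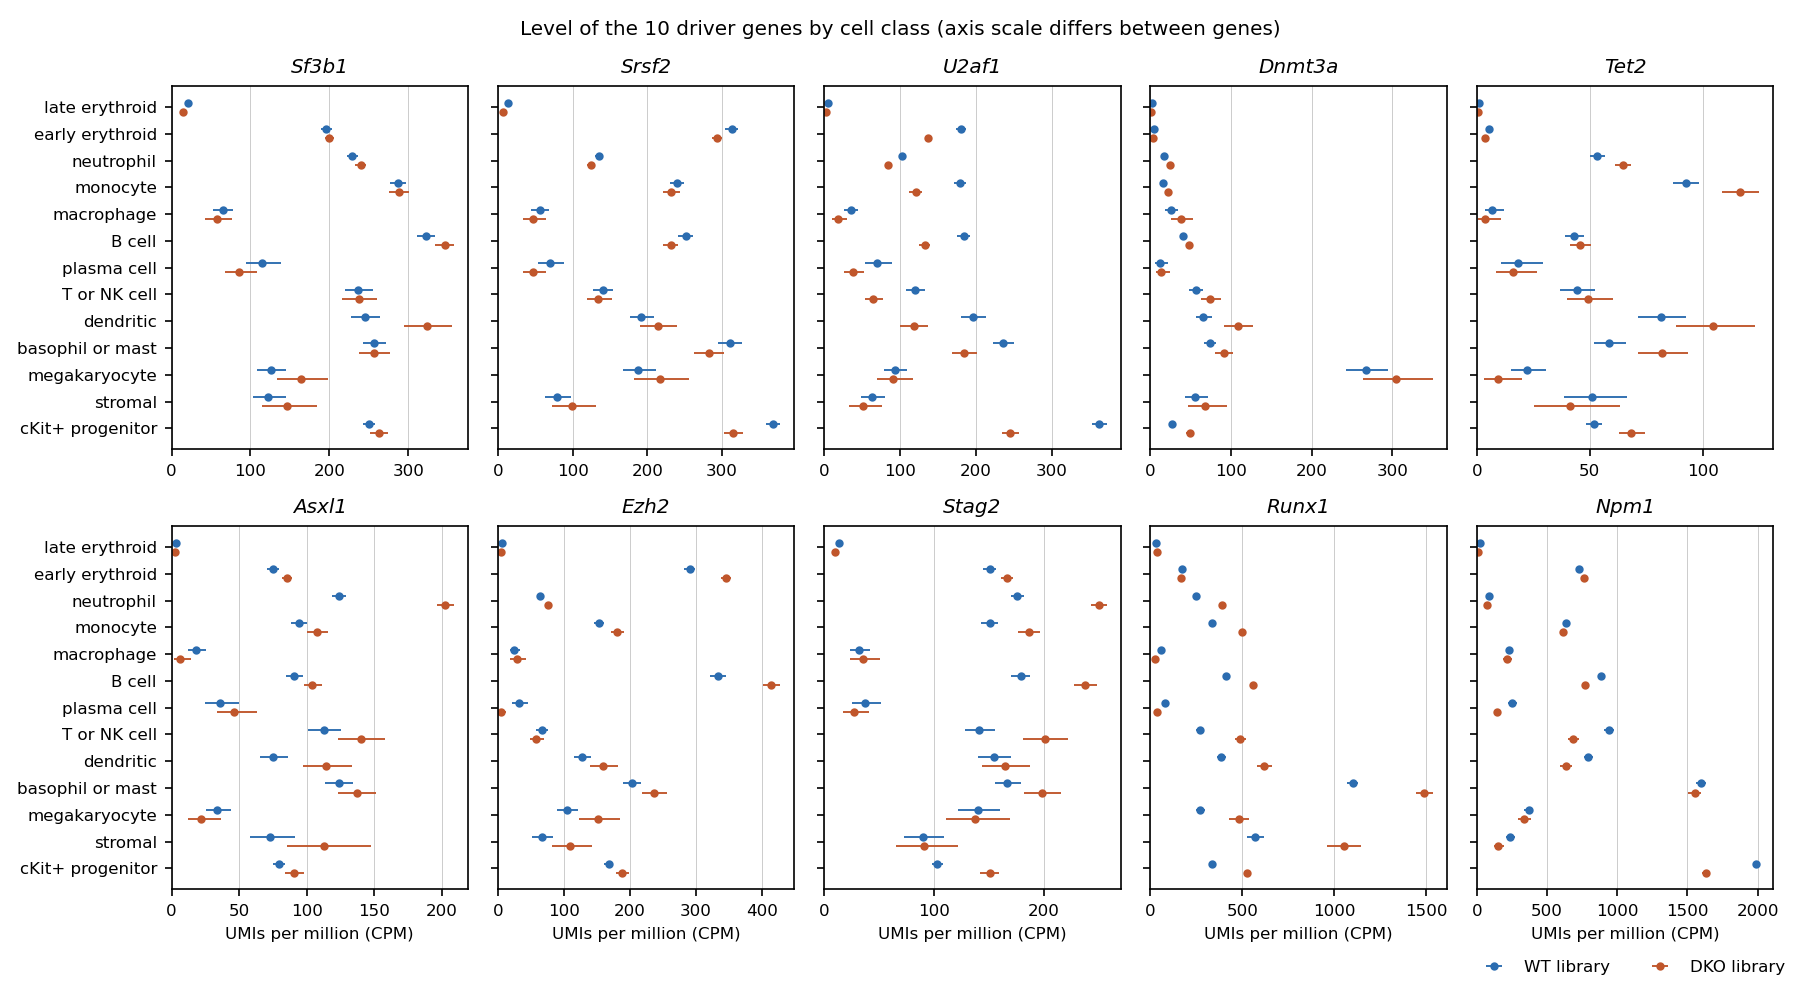
Level of each gene in 13 cell classes of the WT and DKO libraries, in CPM (linear axis from 0, scale differing between genes); points are 1 library each and bars are 95% Poisson intervals. Dnmt3a stands out in megakaryocyte-like cells (267 and 304 CPM) and Runx1 in basophil or mast-like cells (1099.7 and 1489.8 CPM). The low levels in late erythroid-like cells are per total UMIs, hemoglobin included, and without hemoglobin that class is not the lowest for Sf3b1 or Srsf2 in either library or for Npm1 in WT.

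The class with the highest level was the same in both libraries for 8 genes. It was cKit+ progenitor-like for 3 members (Srsf2, U2af1, Npm1), beside 8.65% of the 10736 genes reaching 20 CPM in a class. It was B cell-like for 2 (Sf3b1, Ezh2; all genes 5.55%), monocyte-like for Tet2 (6.73%), megakaryocyte-like for Dnmt3a (7.57%) and basophil or mast-like for Runx1 (6.68%). Asxl1 and Stag2 changed place between neighbours that were not separated in WT. The order of the 13 class levels of a gene was close to the same in both libraries, with Spearman's rho between 0.879 (Asxl1) and 0.989 (Srsf2, Dnmt3a and Ezh2), a description over 13 classes that differ in depth.

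Within the neutrophil-like cells the members separated in opposite directions. The clusters were led by Fcnb, Ltf, Mmp8 and Retnlg, genes of successive stages of neutrophil maturation, and unnamed cluster 5 was led by Il1b and Csf3r. Ezh2 was at 165 CPM in the Fcnb cluster of the WT library, at 29.5 CPM in the Ltf cluster and at 12.7 CPM in the Mmp8 cluster, and the DKO values were 211, 47.5 and 10.1 CPM. U2af1 stood at 177, 95.1, 53.7 and 39.0 CPM in the 4 WT clusters and Npm1 at 164, 64.0, 40.9 and 37.5 CPM. Each of these genes was thus lower in the clusters led by later genes. Asxl1 had the opposite order, with 96.1, 99.8, 160.1 and 186 CPM in WT and 118, 164, 259 and 302 CPM in DKO. Tet2 reached 128 CPM in WT and 125 CPM in DKO in cluster 5, above its 42.6 and 46.8 CPM in the Fcnb cluster. Stag2 went from 150.4 CPM in the WT Fcnb cluster to 245 CPM in cluster 5, and from 210.0 to 296 CPM in DKO.

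The B cell-like clusters showed a like division for Ezh2 and Npm1. They were led by Dntt and Vpreb1 (cluster 18, early precursors), Rag1 and Vpreb3 (cluster 17), Ms4a1 and Klhl14 (cluster 8) and Ighd (cluster 7, mature cells). Ezh2 was at 526 and 628 CPM in the WT precursor clusters and at 41.0 CPM in the Ighd cluster, and in DKO at 625 and 719 CPM and at 25.9 CPM. Npm1 was at 1928 CPM in WT and 1759 CPM in DKO in the Dntt cluster, and at 543 and 444 CPM in the Ighd cluster. U2af1 went from 320 to 100.5 CPM in WT and from 213 to 62.1 CPM in DKO across the same pair of clusters. Stag2 was at 196 and 164 CPM in WT but at 207 and 267 CPM in DKO there. Ezh2, Npm1 and U2af1 therefore ran from precursor to mature clusters in the same direction in both libraries, and Stag2 did not.

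**Figure D2:**
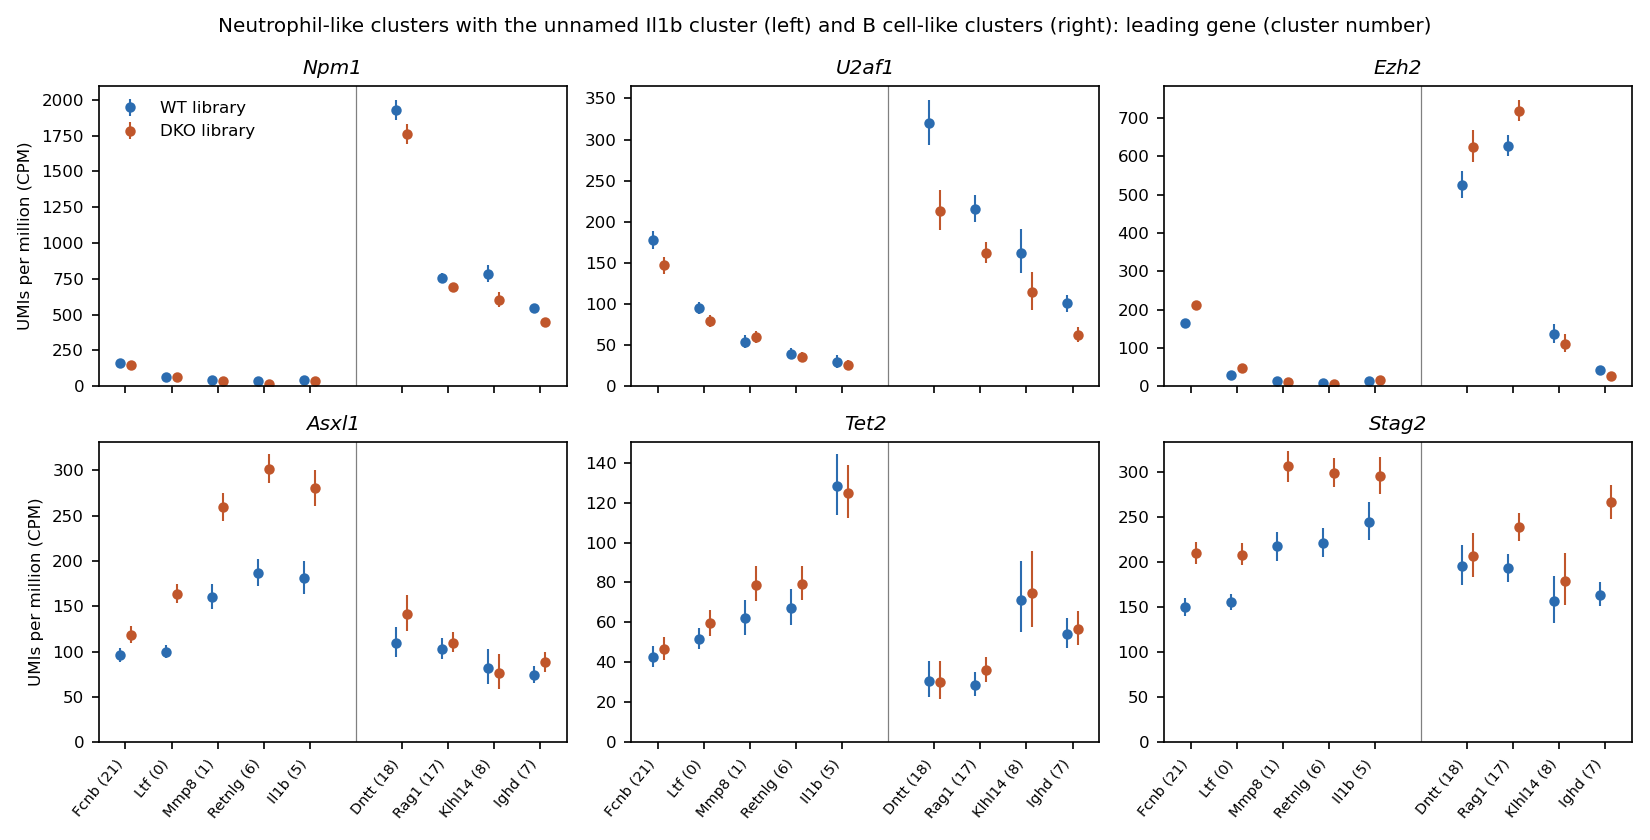
Levels of 6 genes in CPM (linear axis from 0) across neutrophil-like clusters with unnamed cluster 5 (left of the line) and B cell-like clusters (right), each named by a leading gene; points are 1 library each with 95% Poisson intervals. Ezh2, Npm1 and U2af1 are highest in the Fcnb and the precursor B cell-like clusters, while Asxl1 is highest in the Retnlg cluster (186 CPM in WT, 302 CPM in DKO).

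Over the 30 clusters the levels were set beside the summed level of G2/M genes, markers of dividing cells, with hemoglobin UMIs left out. Pearson's r was 0.65 in WT and 0.68 in DKO for Ezh2 and 0.51 and 0.43 for Srsf2. It was negative for Tet2 (-0.63 and -0.50) and Dnmt3a (-0.44 and -0.48), and between -0.24 and 0.20 for the other members. The clusters of a library share its depth and its free RNA, so these are descriptions of 30 points.

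The genes most like each member over 13 classes in both libraries were named from 7333 genes, by Pearson's r over 26 points. Sf3b1 was followed by Smndc1, Hnrnpl and Snrnp200 (r between 0.983 and 0.984), all coding for splicing or hnRNP proteins, and Srsf2 by Hnrnpa2b1, Srsf3 and Eif4e (0.980 to 0.986). U2af1 was closest to Eif5a, Mrps17 and Mrpl18 (0.977 to 0.980), and Npm1 to Rps2, Cct3 and Mrpl12 (0.985 to 0.987). Ezh2 lay nearest to Srsf1, Cbx5 and Itpa (0.949 to 0.956), Tet2 to Nedd4l, Elf4 and Stx18 (0.959 to 0.960) and Asxl1 to Vti1a, Csnk1g1 and Rprd2 (0.959 to 0.974). Stag2 was most like Oga, Rcor1 and Pum2, Runx1 like Atxn3, Yeats2 and Ptbp2 and Dnmt3a like Arhgap18, Pygb and Galnt2. Among the members themselves r ran from 0.30 for Dnmt3a with Asxl1 to 0.97 for Srsf2 with U2af1. All points share the low levels per total UMIs of late erythroid-like cells and the depth of their library.

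Erythroid-like cells were then placed in 5 bins by the share of hemoglobin among a cell's UMIs, and levels were given as CPM of non-hemoglobin UMIs. Npm1 was at 1810 CPM in WT and 2275 in DKO below 15% hemoglobin, and at 216 and 245 from 15 to 40%. U2af1 declined over 4 bins, from 319 to 216, 103 and 36.3 CPM in WT and from 273 to 168, 108 and 14.1 in DKO. Both genes were thus highest in the erythroid-like cells with the least hemoglobin. Ezh2 peaked at 15 to 40% hemoglobin, with 544 CPM in WT and 625 in DKO, and stood at 229.9 and 425 at 40 to 75%. Ezh1, the other PRC2 methyltransferase gene, was at 13.3 and 10.2 below 15% and at 113 and 79.9 from 40 to 75%. The Ezh2 peak therefore lay in an earlier bin than that of Ezh1 in both libraries.

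Runx1 was highest at 40 to 75% hemoglobin, at 424 CPM in WT and 404 in DKO, against 202 and 216 below 15%. At 75 to 90% hemoglobin it was at 118 in WT and 278 in DKO, and Ezh1 was at 34.4 and 92.8, both higher in DKO with the interval clear of 0. The bins were not matched stages, since 3485 WT and 1393 DKO cells lay at 75 to 90% and 1374 and 2581 above 90%. In the same 75 to 90% bin the log2 ratio of DKO over WT was 0.52 for the erythroid factor gene Gata1 and 0.62 for the division marker Mki67. Their part in the Runx1 and Ezh1 difference was not tested. Unnamed cluster 27, erythroid by its leading genes Xpo7 and Slfn14, had Runx1 at 985 CPM in WT and 823 CPM in DKO, and early erythroid-like cluster 14 at 756 and 474 CPM.

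**Figure D3:**
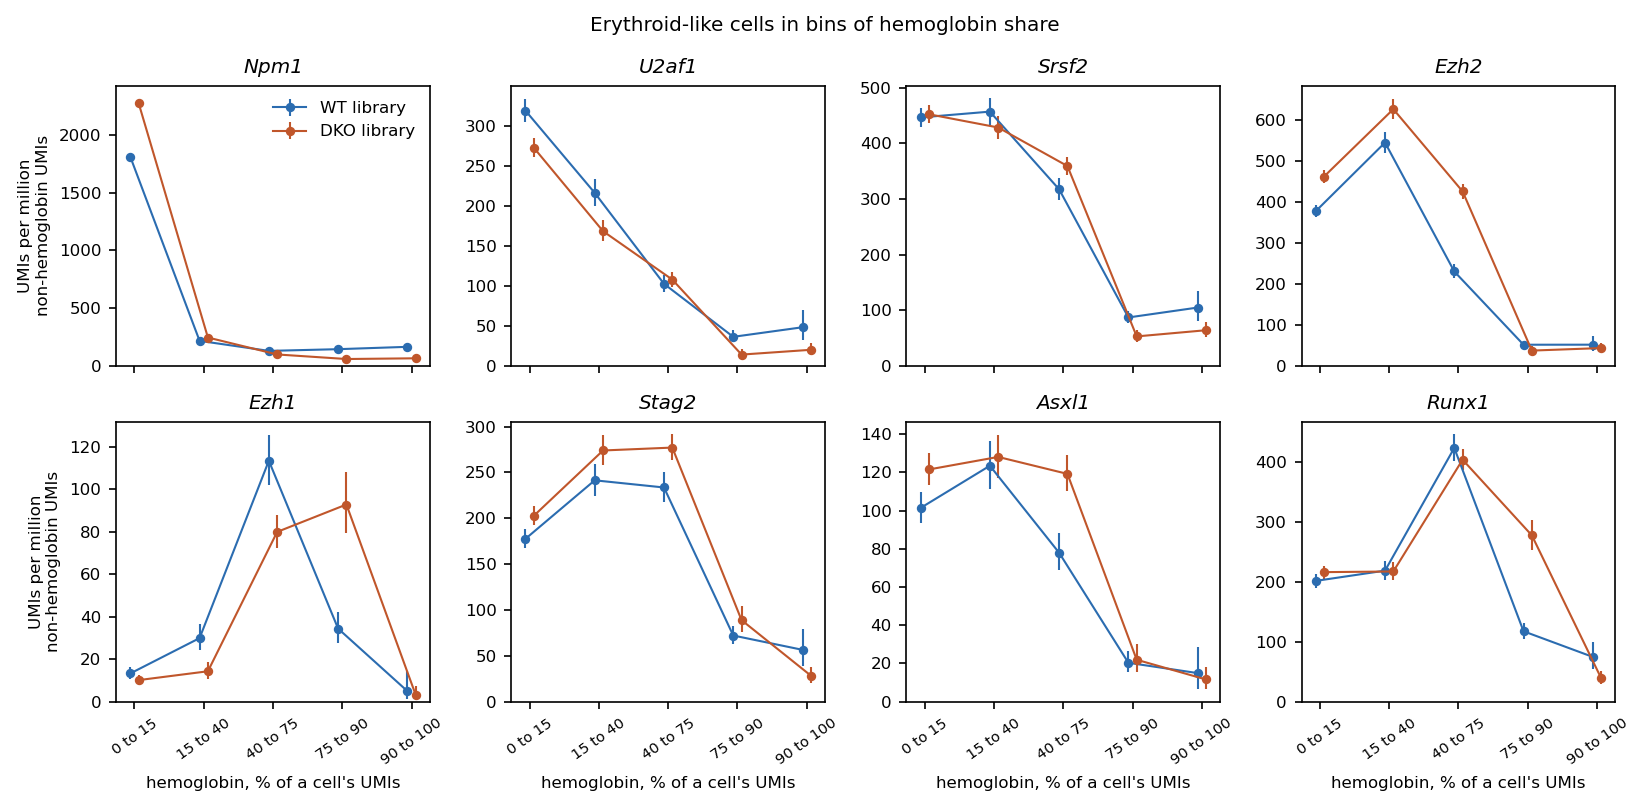
Levels of 7 members and Ezh1 in CPM of non-hemoglobin UMIs (linear axis from 0) in erythroid-like cells binned by hemoglobin share; points are 1 library each, bars are 95% Poisson intervals and lines only join bins. Npm1 is highest in the first bin, Ezh2 peaks at 15 to 40% and Runx1 at 40 to 75% hemoglobin.

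To compare the genotypes, the ratio of DKO over WT was taken in each class as a log2 value with 1 count added, for genes whose mean was at least 20 CPM. Of 130 pairs of a member and a class 112 reached that level, 69 of them above 0 and 43 below, and in 74 the interval was clear of 0. A pair was called where the difference was at least 1.5-fold and the interval clear of 0. This held for 20 pairs, 12 higher and 8 lower in DKO. Over all genes 12.8% of 65554 pairs were called, and the classes' own shares would give 14.8 calls for pairs spread as those of the members. The share of all genes called was 3.4% in B cell-like, 3.76% in early erythroid-like, 5.53% in basophil or mast-like, 6.11% in monocyte-like, 6.84% in cKit+ progenitor-like and 8.19% in neutrophil-like cells. It was 15.8% in dendritic-like, 15.3% in T or NK cell-like, 16% in macrophage-like, 20.4% in megakaryocyte-like, 26.5% in plasma cell-like, 28.5% in late erythroid-like and 32.3% in stromal-like cells. The members' 20 calls were thus not far from the background. They fell on Runx1 (8), U2af1 (4), Asxl1 (3), Dnmt3a and Npm1 (2 each) and Ezh2 (1), and on none of Sf3b1, Srsf2, Stag2 and Tet2.

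The U2af1 ratio lay below 0 in every class, with the interval clear in 10 of the 12 classes at the minimum level. Free RNA could account for up to 77.4% of the WT U2af1 UMIs in late erythroid-like and 77.6% in stromal-like cells. In macrophage-like cells this ceiling was 34.7%, and in the remaining classes it was at most 14.98%. All cells together held 140.4 CPM in WT (16776 UMIs) and 85.8 CPM in DKO (9858 UMIs), a log2 ratio of -0.71. This pooled value also carries the make-up of the libraries. With hemoglobin UMIs left out it was -0.54. The cKit+ progenitor-like cells, the class with the most U2af1, were 3.79% of WT and 1.97% of DKO cells. T or NK cell-like cells held 119.7 CPM in WT and 64.7 CPM in DKO, a log2 ratio of -0.88 (95% interval -1.20 to -0.59). Dendritic-like cells held 196 and 118 CPM, or -0.73 (-0.997 to -0.48). These classes were called, as were plasma cell-like cells at -0.87 (64 and 33 UMIs) and macrophage-like cells at -0.87 (56 and 15 UMIs). In the classes with the most U2af1 UMIs the ratio was smaller but its interval was clear of 0, at -0.56 in cKit+ progenitor-like, -0.57 in monocyte-like, -0.48 in B cell-like, -0.39 in early erythroid-like and -0.30 in neutrophil-like cells. The ratio was below 0 in all 13 classes, as it was for 8.15% of the 1559 genes at the minimum level in at least 12 classes. Measured from the median of all genes of a class it was again below 0 in all 13 (all genes 12%), and 7 classes were then past the fold. By cluster it was below 0 in 22 of 24 clusters at the minimum level, in 16 with the interval clear of 0, and in none above 0 with the interval clear.

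The neighbours of U2AF1 in the splicing reaction were read beside it. U2af2, which codes for the other subunit of the U2AF dimer, was below 0 in 5 of 24 clusters, in none with the interval clear. It was above 0 in 19, in only 2 with the interval clear, so in most clusters its ratio was not told apart from 0. U2af1l4, a paralogue of U2af1, was called lower in cKit+ progenitor-like cells (35.6 CPM in WT, 23.3 CPM in DKO) and in dendritic-like cells (28.9 and 17.5 CPM). The last 400 bases of U2af1 share 61.9% of their 60-base words with 3 other annotated genes that are not in the count matrices, and the other 9 members share none. How reads that map to several places were counted is not given in the sources used here, so the U2af1 counts are uncertain to that extent. With doublets kept, the dendritic-like and macrophage-like values were -0.43 and -0.36 and no longer past the fold.

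Npm1 was below 0 in 11 of 12 classes, in 7 of them with the interval clear. T or NK cell-like cells held 940 CPM in WT and 687 CPM in DKO, a log2 ratio of -0.45. In cKit+ progenitor-like cells the levels were 1988 and 1631 CPM, a ratio of -0.29, and in B cell-like cells 881 and 771 CPM, a ratio of -0.19. Early erythroid-like cells were the exception, with 729.6 and 762 CPM. The called classes were plasma cell-like at -0.78 (231 and 128 UMIs) and stromal-like at -0.62 (261 and 75 UMIs), and in the latter free RNA could account for up to 80.0% of the WT UMIs. Srsf2 was below 0 in 9 of 12 classes and past the fold in none, for example at -0.23 in cKit+ progenitor-like cells. Sf3b1 lay within 0.41 of 0 in all 12 of its classes, at 0.07 in cKit+ progenitor-like cells and 0.03 in early erythroid-like cells. The splicing genes thus differed among themselves, with U2af1 lowest relative to WT. The order of Srsf2 and Sf3b1 turned around when measured from genes of like genomic length, as given below.

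Runx1 had the most calls in the other direction. In neutrophil-like cells it was at 246 CPM in WT (4759 UMIs) and 387 CPM in DKO (7584 UMIs), a log2 ratio of 0.66 (0.60 to 0.71). In T or NK cell-like cells it was at 268 and 490 CPM, a ratio of 0.87, and in cKit+ progenitor-like cells at 336 and 522 CPM, a ratio of 0.64. Dendritic-like (0.68), megakaryocyte-like (0.82) and stromal-like cells (0.88) were also called higher. Of the 445 genes at the minimum level in all 13 classes, 3 (0.674%), Runx1 among them, were called higher in at least 6. The limit of 6 was Runx1's own count and the genes were not matched to it in genomic length. This share therefore describes Runx1 and does not test it. Monocyte-like, B cell-like and basophil or mast-like cells were at 0.57, 0.45 and 0.44 and short of the fold. Runx1 was thus higher in DKO in most classes, but not in early erythroid-like cells at -0.05.

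Macrophage-like and plasma cell-like cells went the other way for Runx1, at -0.99 (88 and 22 UMIs) and -1.11 (71 and 31 UMIs). With doublets kept these became 0.66 and 0.40. The megakaryocyte-like value was -0.85 at a finer clustering, and with the 2 stromal-like clusters weighted alike in both libraries the stromal-like value was 0.38 and not called. The values of dendritic-like, neutrophil-like, T or NK cell-like and cKit+ progenitor-like cells stayed called in each alternative that changed the cells, the clusters or the totals and gave them a value.

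**Figure D4:**
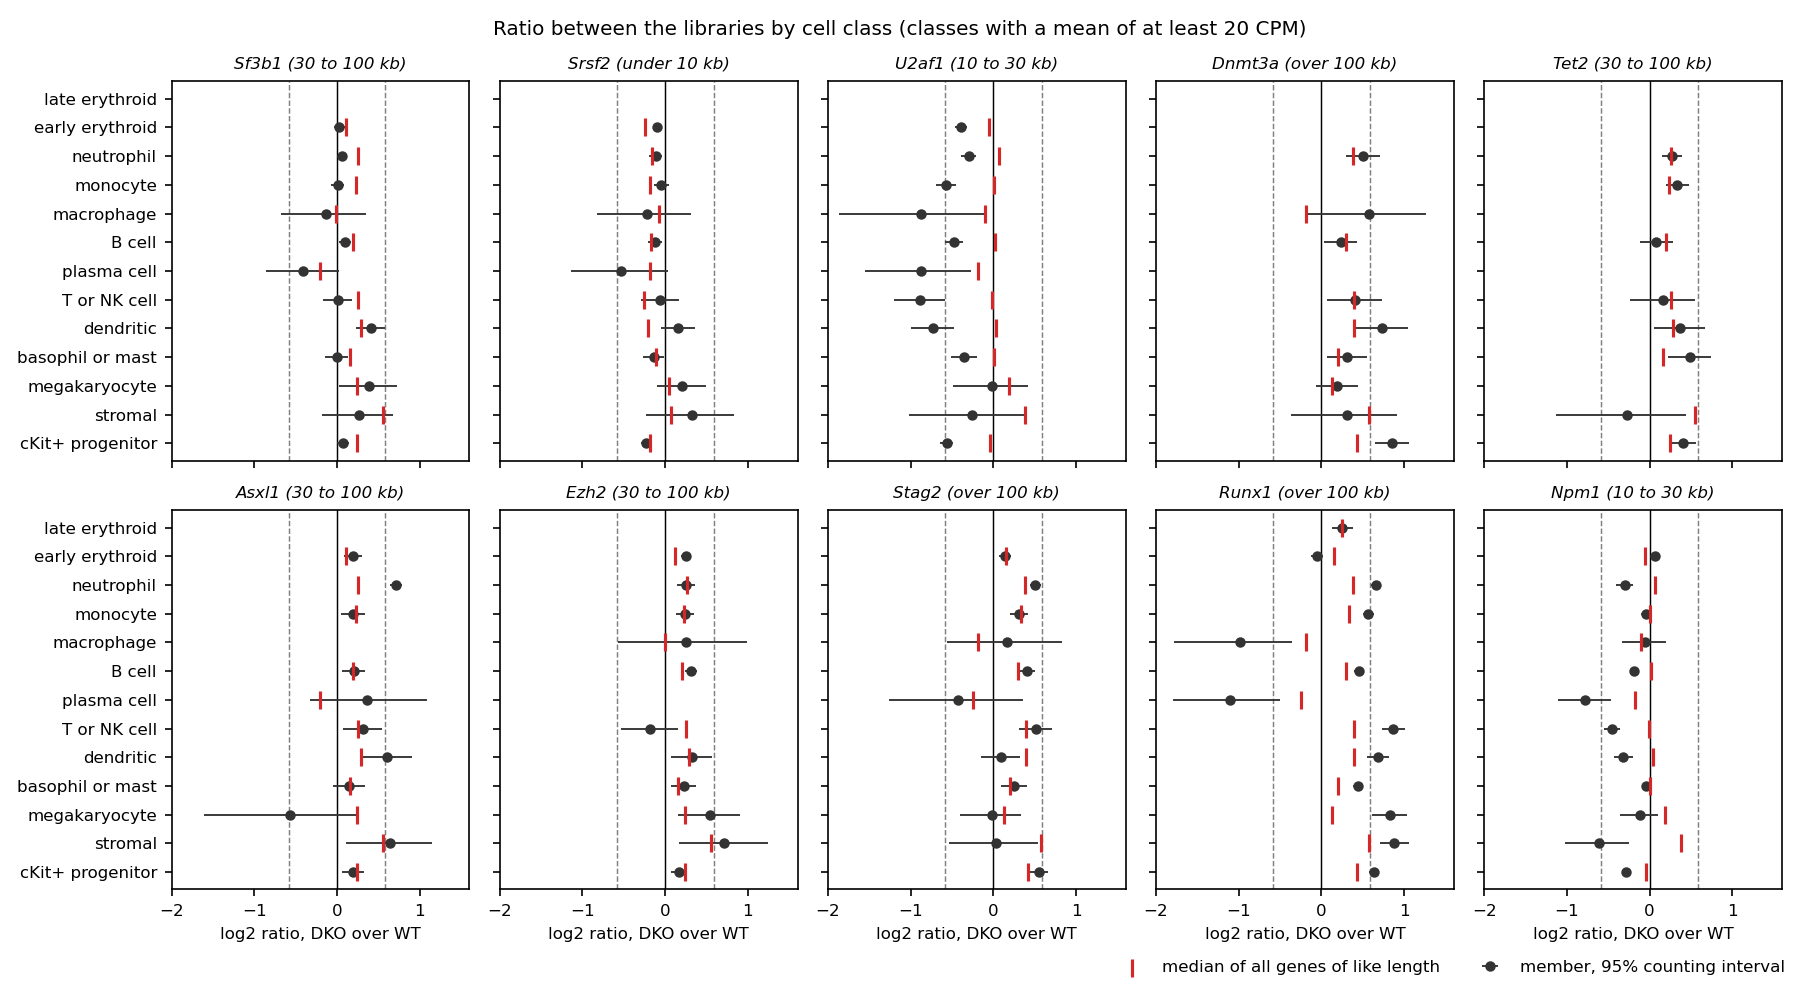
Log2 ratio of DKO over WT for each gene in the classes with a mean of at least 20 CPM; points are ratios of 2 libraries with 95% counting intervals, dashed lines mark 1.5-fold and red ticks the median of all genes of like genomic length in that class. U2af1 lies below 0 in all its classes and below the red tick in 12 of 12, while Runx1 lies above 0 in 10 of 13.

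Dnmt3a was above 0 in all 9 classes at the minimum level, in 6 with the interval clear. In cKit+ progenitor-like cells it stood at 26.9 CPM in WT (415 UMIs) and 48.5 CPM in DKO (379 UMIs), a log2 ratio of 0.85 (0.65 to 1.05). Dendritic-like cells held 65.6 and 108 CPM, a ratio of 0.73, and the class with the highest level, megakaryocyte-like, 267 and 304 CPM with an interval that included 0. Over all cells the level was 25.4 CPM in WT and 23.4 CPM in DKO, lower in DKO, where more UMIs came from hemoglobin. Tet2, with the opposing activity, was above 0 in 7 of 8 classes, in 5 with the interval clear, and highest relative to WT in basophil or mast-like cells at 58.6 and 82.0 CPM, a ratio of 0.48. The methyltransferase and the oxidase therefore both lay above 0 in most classes where they were measured. Most genes of like genomic length did so too in many classes. Of genes over 100 kb, like Dnmt3a, 94.0% lay above 0 in cKit+ progenitor-like, 90.6% in dendritic-like and 37.1% in macrophage-like cells. Of genes of 30 to 100 kb, like Tet2, 81.4% did in monocyte-like and 74.5% in basophil or mast-like cells.

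Asxl1 was called in neutrophil-like cells, where 124 CPM in WT (2396 UMIs) stood against 203 CPM in DKO (3968 UMIs), a log2 ratio of 0.71 (0.64 to 0.79). It was also called in dendritic-like (0.61) and stromal-like cells (0.64), and 8 of its 11 classes lay above 0 with the interval clear. In the neutrophil-like clusters the DKO level exceeded the WT level throughout, as the values by cluster above show. Ezh2 was above 0 in 10 of 11 classes, in 9 with the interval clear, at 0.25 in early erythroid-like and 0.32 in B cell-like cells, and called in stromal-like cells at 0.71 (73 and 53 UMIs). Stag2 was above 0 in 10 of 12 classes and closest to the fold in cKit+ progenitor-like cells, at 103 and 151 CPM, a ratio of 0.55. With the stromal-like clusters weighted alike, the Asxl1 and Ezh2 ratios there were 0.13 and 0.17.

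The ratios moved with the genomic length of a gene, and this held for all genes. In neutrophil-like cells the median log2 ratio was -0.16 for genes under 10 kb and 0.38 for genes over 100 kb, a difference of 0.53. The difference was 0.66 in T or NK cell-like, 0.61 in cKit+ progenitor-like, 0.60 in dendritic-like, 0.52 in monocyte-like and 0.47 in B cell-like cells. It was 0.08 in megakaryocyte-like cells, -0.07 in plasma cell-like and -0.11 in macrophage-like cells. In neutrophil-like cells 31.8% of genes under 10 kb lay above 0, against 85.3% at 30 to 100 kb and 94.3% over 100 kb. In plasma cell-like cells these shares were 36.6%, 35.1% and 30.4%. Runx1 spans 225 kb, Stag2 128 kb and Dnmt3a 108 kb (chr12:3806007-3914443), against 10.9 kb for Npm1, 11.8 kb for U2af1 (chr17:31647081-31658892, minus strand) and 3.19 kb for Srsf2 (GRCm38). The members with higher ratios were thus among the longer genes and those with lower ratios among the shorter ones. Whether intronic reads were counted is not given in the sources used here. The part of length in the differences was not tested.

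Measured from the median of genes of like length in the same class, 2 pairs were past the fold and higher in DKO where there had been 12. They were Runx1 in megakaryocyte-like cells at 0.70 and Dnmt3a in macrophage-like cells at 0.76 (41 and 31 UMIs), and the second was not among the 12. Runx1 stood at 0.28 in neutrophil-like and 0.21 in cKit+ progenitor-like cells on this measure, and Asxl1 in neutrophil-like cells at 0.45. U2af1 stayed below like-length genes in 12 of 12 classes, by a median of -0.55, and 3 classes were past the fold. Srsf2 was above like-length genes in 8 of 12 classes, with a median of 0.09. Sf3b1 was below them in 10 of 12, with a median of -0.17. The medians were 0.23 for Runx1, 0.11 for Dnmt3a and 0.02 for Stag2. They were 0.07 for Ezh2, 0.05 for Tet2 and Asxl1 and -0.28 for Npm1. Beside U2af1, Npm1 and Runx1 were each past the fold and lower in 2 classes. Tet2 and Asxl1, with no lower calls before, were so in 1 class each. On this measure the medians of the members over 100 kb stood closer to 0, and that of U2af1 did not. This alternative was chosen after seeing the data.

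**Figure D5:**
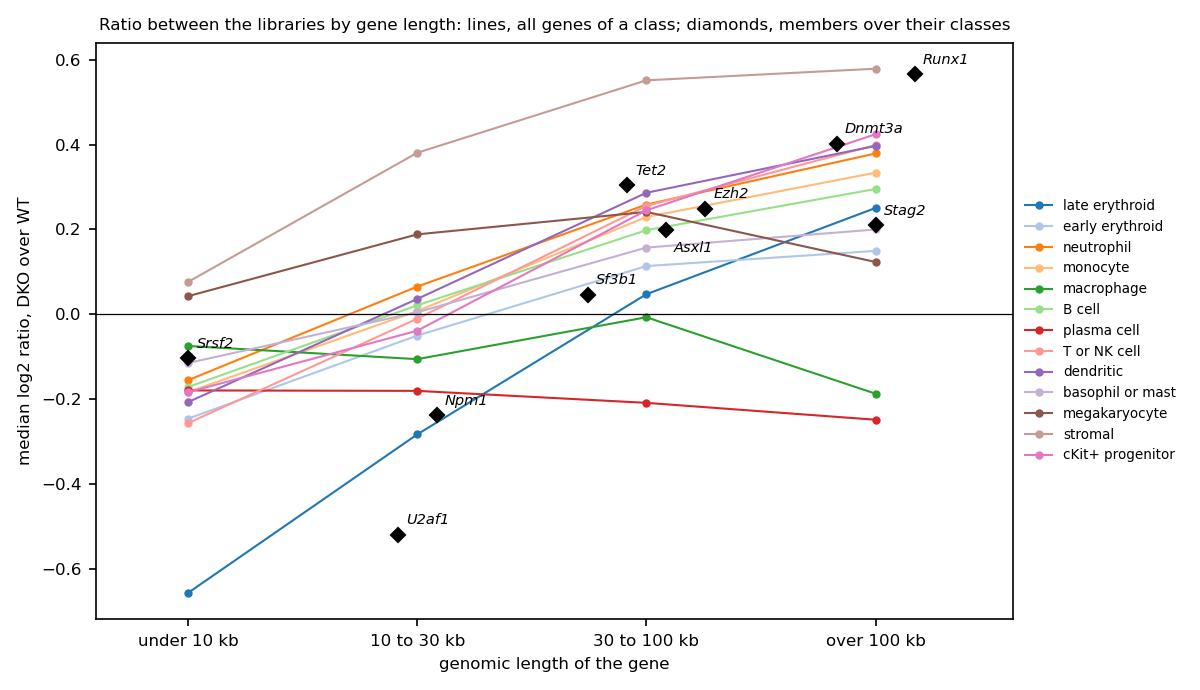
Median log2 ratio of DKO over WT by genomic length of the gene; lines are all genes of a class at the minimum level and diamonds are the members, each its median over its own classes. In most classes the median goes up with length, and U2af1 lies at -0.52 below every line of its bin.

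The partners of these proteins, 54 genes of the same complexes and families, were counted in the same way. Their ratios and those of the other drivers below are given without the like-length measure. Most genes over 100 kb lay above 0 in many classes, as given above, and the part of length was not tested here. In cKit+ progenitor-like cells 1 of 47 partners at the minimum level was called higher and 1 lower. Of all 6255 genes there 348 were called higher and 80 lower. The median log2 ratio of the partners was 0.02 beside 0.09 for all genes. In neutrophil-like cells 1 of 38 partners was called higher and none lower, beside 325 higher and 80 lower of all 4948 genes. In B cell-like cells none of 46 was called higher and 1 lower, beside 121 and 94 of all 6328 genes. Pds5b, which codes for a regulator of cohesin on chromatin, was called higher in 6 classes, with 31.9 CPM in WT and 50.2 CPM in DKO neutrophil-like cells and 63.9 and 101.9 CPM in cKit+ progenitor-like cells. Tet3, a paralogue of Tet2, was called in monocyte-like cells at 88.0 and 167 CPM, a ratio of 0.92. Srsf5, which codes for an SR splicing factor, was called lower in 5 classes, for example in B cell-like cells at 285.3 and 188 CPM. The counts of classes for Pds5b and Srsf5 stand without a share of all genes, so they do not set these genes apart.

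Classes with few cells held most of the other calls. In plasma cell-like cells 10 of 30 partners were called lower and none higher, beside 709 lower and 175 higher of all 3342 genes. The lower partners were led by Runx2 (59 and 9 UMIs), the cohesin genes Smc3 and Smc1a and the PRC2 gene Suz12. The summed level of G2/M genes there was 292 CPM in WT and 39.7 CPM in DKO. In megakaryocyte-like cells Dnmt1, the maintenance methyltransferase gene, was at 49.9 and 24.7 CPM, and the G2/M sum was 924 and 139 CPM. Runx3 was called higher there from 16 and 21 UMIs. The part of the G2/M levels in these differences was not tested. Stag1, the cohesin paralogue of Stag2, was called higher in T or NK cell-like cells at 209 CPM in WT and 343 CPM in DKO, as was Runx2 at 83.1 and 136 CPM. In stromal-like cells 13 of 43 partners were called higher and none lower, with a median of 0.47 beside 0.45 for all genes. Of all 5961 genes there 1701 were called higher and 223 lower.

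Of 34 other driver genes of myeloid neoplasms, 2 of 29 were called higher in cKit+ progenitor-like cells and none lower. Of all 6255 genes there 348 were called higher and 80 lower. The 2 drivers were Cux1, a homeobox transcription factor gene (189 CPM in WT, 294 CPM in DKO), and Kmt2a, a histone methyltransferase gene (51.2 and 78.0 CPM). Cux1 was also the 1 call of 23 in neutrophil-like cells, at 158 and 239.9 CPM. In T or NK cell-like cells 4 of 27 were called higher (Setbp1, Kmt2a, Jak2 and Kdm6a) and 1 lower (Idh2, 27.9 and 17.4 CPM). Of all 6143 genes there 609 were called higher and 333 lower. In early erythroid-like cells none of 24 other drivers, none of 44 partners and none of 8 members was called in either direction. Of all 4465 genes there 39 were called higher and 129 lower. Single hemoglobin bins differed more. At 40 to 75% the log2 ratio was 0.88 (0.77 to 1.01) for Ezh2, 0.61 for Asxl1, 1.19 for Stag1 and -0.39 for Npm1. Mki67 was at 0.74 and Gata1 at 0.47 in that bin, and their part was not tested.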

How the data were processed

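Single-cell libraries of femoral marrow were made with the Chromium 3′ v3 kit, and the authors deposited UMI counts per gene and barcode from Cell Ranger 7.1.0 (per the file headers) on mm10. The counting of intronic or antisense reads is not given in the sources used here, and 5 members overlap a counted gene on the opposite strand (Srsf2, Dnmt3a, Tet2, Asxl1 and Runx1). The WT matrix held 1518290 barcodes, of which 19227 were called cells here from its UMI counts and its free RNA, and the DKO matrix held 14142 barcodes already called. Cells above 20% mitochondrial UMIs (173 and 215) and Scrublet doublets (333 and 198, at a score of 0.2279 in both libraries) were left out, which kept 119461163 and 114830668 UMIs.

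Counts were normalised per cell, reduced to 30 components and clustered (Leiden, resolution 1) in scanpy 1.11.5, and a class was named from at least 3 raised markers. UMIs were summed per library and class, as CPM with exact Poisson intervals, and ratios carried exact binomial intervals after 1 count was added, over all genes. No p-value was computed, because each genotype was 1 library. A ceiling for free RNA was set in WT from the class's lowest set of foreign markers. Promoters came from RefSeq GRCm38.p6. Counts were also simulated with counting noise only and with changes larger than 1.5-fold in 200 genes per class. Of these genes 92%, 93% and 88% passed the fold in late erythroid-like, B cell-like and dendritic-like cells. Differences between mice or libraries were not simulated, so these shares are not the sensitivity of the real comparison. The members and lists were chosen with earlier results of these data known. Beside the members, partners and other drivers were named where past the fold, up to 4 in each direction per class, with their paralogs, and for each member the 3 genes most alike in log2(CPM + 5). Results were recomputed under 13 other settings listed at the outset and 1 chosen after seeing the data.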

Additional observations from a re-analysis of the deposited data

Results flagged for a closer look

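Runx1 differed in direction between classes. In stromal-like cells the log2 ratio of DKO over WT was 0.88 (624 and 511 UMIs), and in plasma cell-like cells -1.11 (71 and 31 UMIs), with both intervals clear of 0 on opposite sides. The difference between the classes was not tested, since each ratio rests on 1 library per genotype. The plasma cell-like value was 0.40 with doublets kept.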

How the results depend on the processing

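Without a minimum level 18 pairs were past the fold and lower, where there were 8. Centred on the class median 3 pairs were past the fold and higher, where there were 12, and 2 when centred on genes of like genomic length, which was chosen after seeing the data. In the lower direction, centring on the class median put 7 classes of U2af1, 2 of Runx1 and 1 each of Npm1 and Tet2 past the fold. The members highest in B cell-like cells in both libraries numbered 1 in place of 2 with hemoglobin UMIs left out, at Leiden resolution 0.5 and with each cell weighted equally. Those highest in basophil or mast-like cells numbered 0 at resolution 0.5 and 2 at resolution 2.0 in place of 1, and those in monocyte-like cells 0 at resolution 2.0 in place of 1. Runx1 reversed in macrophage-like cells with doublets kept (0.66), at resolution 0.5 (0.44) and at resolution 2.0 (0.67), in plasma cell-like cells with doublets kept (0.40) and in megakaryocyte-like cells at resolution 2.0 (-0.85). The log2 level of Runx1 at 75 to 90% over that at 0 to 15% hemoglobin in DKO was -2.31 when scaled to all UMIs, also a reversal. In each setting that changed cells, clusters or totals at most 5 pairs kept their direction but lost the call, by the fold or by an interval that reached 0, against 10 and 12 when the ratios were centred. The cause was not tested beyond what each alternative leaves out. A limit of 10% mitochondrial UMIs or leaving out the 75 shared barcodes moved none of 112 pairs. With 1 mouse per genotype, differences between mice, libraries and genotypes cannot be told apart, and plasma cell-like and macrophage-like values rest on few UMIs. No paired analysis was possible because each genotype had 1 library.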
